A study of Mus musculus with 12 samples.

Results

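The genes described here are 9 members of the TALE class of homeobox genes: *Meis1*, *Meis2* and *Meis3*, the PBX genes *Pbx2*, *Pbx3* and *Pbx4*, the PREP genes *Pknox1* and *Pknox2*, and *Tgif1*. They were chosen by name, as 9 of the 21938 protein-coding genes of the annotation. Each was followed in 8 lists of called histone peaks from neonatal mouse cortex, over a window that ran from 5 kb upstream of the outermost TSS to the end of the gene (mm10).

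TALE homeodomain proteins carry a loop of extra amino acids between the first helices of the homeodomain. MEIS and PREP proteins (the latter encoded by the *Pknox* genes) pair with PBX proteins on DNA, and these pairs act as cofactors of HOX and other homeodomain factors, whereas TGIF1 is known mainly as a repressor that interacts with SMAD proteins. In the forebrain, *Meis1* and *Meis2* are known for their expression in the ganglionic eminences, where cortical interneurons are born, and *Meis2* also for its expression in the postnatal olfactory system.

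Cortical tissue came from *Gad67-GFP* heterozygote pups at postnatal day 2, of mixed background crossed to CD-1 mice, with 2 to 3 litters pooled for each sample. In these mice GFP is expressed from the locus of *Gad1*, which encodes the GABA-synthesising enzyme GAD67. Cells were sorted by FACS into GFP+ cells, which are the immature cortical interneurons (CINs), and GFP- cells (non-CINs), a mixture rich in glutamatergic neurons and glia. Both populations carry the same GFP allele. Native ChIP on MNase-digested chromatin was made for H3K27ac, a mark of active promoters and enhancers, and for H3K27me3, the mark laid down by Polycomb repressive complexes, in 2 replicates of each population. The 4 input samples have no list of their own and served as background in calling the peaks.

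The H3K27ac lists held 46040 to 62505 peaks and the H3K27me3 lists 36662 to 45081. In both populations the replicate 1 H3K27ac list was longer and covered more of the genome than the replicate 2 list. For H3K27me3 replicate 2 covered more, at 47.49 against 36.94 Mb in CINs and 53.57 against 42.25 Mb in non-CINs. Within each replicate number the non-CIN H3K27me3 list covered more of the genome than the CIN list. All 7 GABAergic marker genes had more H3K27ac-covered bp in both CIN lists than in both non-CIN lists, with a mean covered share of 58.7% and 51.9% of the window in CINs against 0.0981% and 0.122% in non-CINs. All 4 markers of astrocytes and radial glia were higher in non-CINs, while of the 6 glutamatergic markers 1 was higher in each population. Of the 4 oligodendrocyte markers *Pdgfra* was higher in CINs and *Olig2* in non-CINs, and 1 of 4 microglial and 1 of 4 vascular markers were higher in non-CINs. H3K27me3 separated the populations at only 1 of the 7 GABAergic markers (*Gad1*, more in non-CINs), with a mean covered share of 66.7% and 73.0% in CINs against 70.1% and 74.2% in non-CINs. These lists hold calls rather than reads, so a gene without a peak may still carry the mark below the calling threshold. In a mixed population fewer cells with a mark and less of the mark in each cell cannot be told apart.

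The sequences that differed between the populations near these genes are shown first. A CIN-only H3K27ac region is a merged peak without overlap in the non-CIN list of the same replicate number that recurs in both replicates, and a non-CIN-only region is the converse. The 200 bp at the centre of the strongest such region of *Meis1*, *Meis2*, *Pbx3* and *Pknox2* are printed on the plus strand of mm10. Capitals mark a match, on either strand, to TGACAG (the core bound by MEIS proteins, which reads CTGTCA on the other strand), to TGATTGAC (the composite PBX-MEIS core) or to TAATTA (the core bound by DLX and many other homeodomain proteins).
*Meis1* CIN-only, intron, chr11:18916893-18917092: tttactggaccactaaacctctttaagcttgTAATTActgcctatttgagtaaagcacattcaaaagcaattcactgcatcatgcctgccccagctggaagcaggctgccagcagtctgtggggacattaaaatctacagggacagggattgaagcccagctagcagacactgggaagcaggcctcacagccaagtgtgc
*Meis2* CIN-only, intergenic, chr2:116182001-116182200: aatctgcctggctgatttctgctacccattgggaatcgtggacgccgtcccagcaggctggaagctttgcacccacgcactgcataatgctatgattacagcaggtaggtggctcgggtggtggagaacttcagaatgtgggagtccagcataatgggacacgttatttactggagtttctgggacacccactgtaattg
*Meis2* non-CIN-only, intergenic, chr2:115848048-115848247: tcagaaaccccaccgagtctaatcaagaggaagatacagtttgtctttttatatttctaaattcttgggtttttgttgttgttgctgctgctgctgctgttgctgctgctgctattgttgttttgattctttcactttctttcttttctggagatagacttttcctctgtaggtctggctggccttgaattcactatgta
*Pbx3* CIN-only, intergenic, chr2:34016690-34016889: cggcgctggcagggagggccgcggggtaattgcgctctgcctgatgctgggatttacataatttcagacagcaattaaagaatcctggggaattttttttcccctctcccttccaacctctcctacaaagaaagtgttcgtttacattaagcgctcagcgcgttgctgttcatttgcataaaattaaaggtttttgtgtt
*Pknox2* CIN-only, intergenic, chr9:37203985-37204184: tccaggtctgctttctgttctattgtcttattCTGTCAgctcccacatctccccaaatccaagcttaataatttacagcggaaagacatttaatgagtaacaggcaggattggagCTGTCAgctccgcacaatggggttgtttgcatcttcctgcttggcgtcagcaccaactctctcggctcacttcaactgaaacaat

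The *Meis1* region held 1 DLX core and the *Pknox2* region 2 MEIS cores, and none of these cores was present in the other 3 windows. Over all members, 3 of 22 CIN-only windows held a MEIS core and 3 held a DLX core, against 19.2% and 10.9% of the 4181 CIN-only regions of the assembled chromosomes. Among the 10 non-CIN-only windows, 1 held a MEIS core and none a DLX core, against 15.1% and 3.89% of 2775 regions. The PBX-MEIS core was in none of the 32 windows and in 0.526% of CIN-only and 0.252% of non-CIN-only regions. A match is a stretch of letters and not a measured binding site.

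H3K27ac was called at all 9 genes. As the plot of covered share by list shows, *Tgif1*, *Meis2* and *Pbx2* had 39.8% ± 1.35, 35.6% ± 6.48 and 34.8% ± 7.86 of their windows covered (mean and SD of the 4 H3K27ac lists), while the other 6 lay between 3.08% ± 0.548 (*Pbx4*) and 9.78% ± 5.57 (*Pknox1*). The place of *Pbx2* rested on a peak in the upstream part of its window, centred more than 4 kb from its TSS: with the window begun 2 kb upstream its lists ran from 11.8% to 31.4% and overlapped those of *Pknox1*, at 5.97% to 18.9%.

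**Figure D1:**
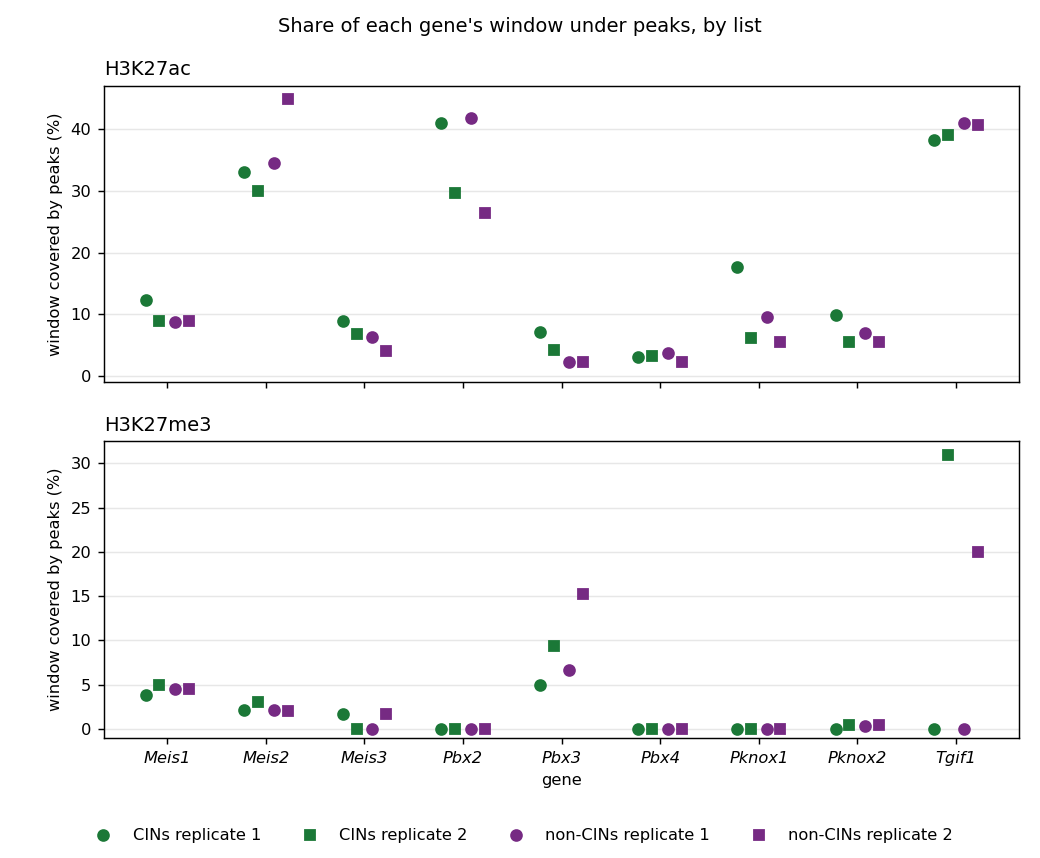
Share of each gene's window (5 kb upstream of the TSS to the gene end, in %) covered by merged peaks of H3K27ac (top) and H3K27me3 (bottom), with 1 point for each list, green for CINs, purple for non-CINs, circles for replicate 1 and squares for replicate 2. *Tgif1*, *Meis2* and *Pbx2* stand above the other genes for H3K27ac (*Pbx2* through a peak more than 4 kb upstream of its TSS), and the *Tgif1* H3K27me3 points above 0 are both from replicate 2.

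With 2 lists on each side, an exact two-sided permutation test cannot give a p below 0.333, so no gene could pass 0.05. A gene is called higher in a population here when both of its lists lay above both lists of the other. By this rule 3 of the 9 members had more H3K27ac-covered bp in CINs (*Meis1*, *Meis3* and *Pbx3*), against 17.8% of the 14672 genes with an H3K27ac peak in any list. In the other direction 2 members (*Meis2* and *Tgif1*) had more in non-CINs, against 18.8% of those genes, and 4 overlapped. After division of covered bp by the total of the list, or with only the strongest 30000 peaks, 0 members had more in non-CINs. The median log2 ratio of covered bp (mean of CINs over mean of non-CINs, with 100 bp added to both) was 0.27 over the members and 0.0069 over all these genes.

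For H3K27me3, 6 members had a peak in some list and *Pbx2*, *Pbx4* and *Pknox1* had none in any. None of the 6 was separated by population in either direction, against 7.48% of the 8941 genes with an H3K27me3 peak for more in CINs and 11.2% for more in non-CINs. The median log2 ratio was −0.034 over the members and −0.094 over all these genes. With lists compared only within the same replicate number (the replicate block), 2 members, *Pbx3* and *Pknox2*, had more in non-CINs. The block can only add calls, and the share of all genes called with it was not computed.

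At the promoter, from 1 kb upstream to 100 bp downstream of the outermost TSS, 9 of 9 members had an H3K27ac peak shared by both replicates (a high-confidence, HC, peak) in CINs, against 44.7% of all protein-coding genes. In non-CINs 7 of 9 had one, against 43.8% of genes, and the exceptions were *Pbx2* and *Pknox2*. Both exceptions rest on the downstream edge of this promoter window: with 500 bp on both sides of the TSS, 9 of 9 members had an HC peak in non-CINs, and both genes also had one at another annotated TSS. No member had an HC H3K27me3 peak at this TSS in either population, against 9.75% of genes in CINs and 9.78% in non-CINs.

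*Pbx3*, which encodes a PBX protein and lies on the minus strand (chr2:34171457-34373142), had the largest ratio of H3K27ac-covered bp between populations. H3K27ac lay over 14761 and 8693 bp in the CIN lists, compared with 4592 and 4554 bp in the non-CIN lists. Both CIN lists lay above both non-CIN lists by at least 4101 bp, with means of 11727 ± 4291 and 4573 ± 26.9 bp (SD, n = 2), a ratio of 2.56 (exact permutation p = 0.333). There were 12 and 10 merged peaks in CINs against 7 and 6 in non-CINs.

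The strongest *Pbx3* peak stood at percentiles 82.7 and 66.4 in CINs, against 71.3 and 75.0 in non-CINs, so the populations overlapped in peak strength (the percentile ranks the peak's fold enrichment over input among all peaks of the same list). An HC H3K27ac peak lay at the TSS in both populations.

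Within 200 kb of *Pbx3* there were 7 CIN-only H3K27ac regions, no non-CIN-only region and 12 common regions (present in all 4 lists). This CIN-only count stood at percentile 99.7 among all protein-coding genes, without scaling by gene length, as for all percentiles of region counts below. In introns of *Pbx3* itself lay 4 of the 7, at 9.33, 117, 144 and 194 kb from the TSS. Introns of *Mapkap1*, upstream, held 2, at −73.9 and −82.4 kb. The strongest was intergenic, 356 kb from the TSS and beyond the end of the gene, with percentiles of 74.6 and 60.9 in the replicates, and its nearest TSS was that of *Mvb12b*, at 129 kb. The intronic region at 9.33 kb held a MEIS core in its central 200 bp.

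*Pbx3* was also the member with H3K27me3 in the most places. H3K27me3 covered 10347 and 19374 bp in the CIN lists, compared with 13711 and 31589 bp in the non-CIN lists, in 10, 16, 15 and 16 merged peaks. The populations overlapped, and the replicate 2 list was the higher in each. Within each replicate number the non-CIN list was above the CIN list, so with the replicate block *Pbx3* had more H3K27me3 in non-CINs. Over the whole genome too, H3K27me3 lists covered more bp in non-CINs within each replicate number, and in replicate 2 within each population. The block call was not scaled for this. The *Pbx3* window held 1 non-CIN-only H3K27me3 region and 7 common ones. Its strongest H3K27me3 peak was at percentiles 79.9 and 93.2 in CINs against 90.4 and 95.2 in non-CINs. The longest H3K27me3 peak of each list began 1.70 to 2.19 kb downstream of the TSS. Summed over the whole window, 2037, 1582, 188 and 793 bp lay under both marks in CINs replicates 1 and 2 and non-CINs replicates 1 and 2, and in non-CINs replicate 2 none of this was next to the promoter. Cells with both marks and a mixture of cells with 1 mark each cannot be told apart in a sorted population.

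**Figure D2:**
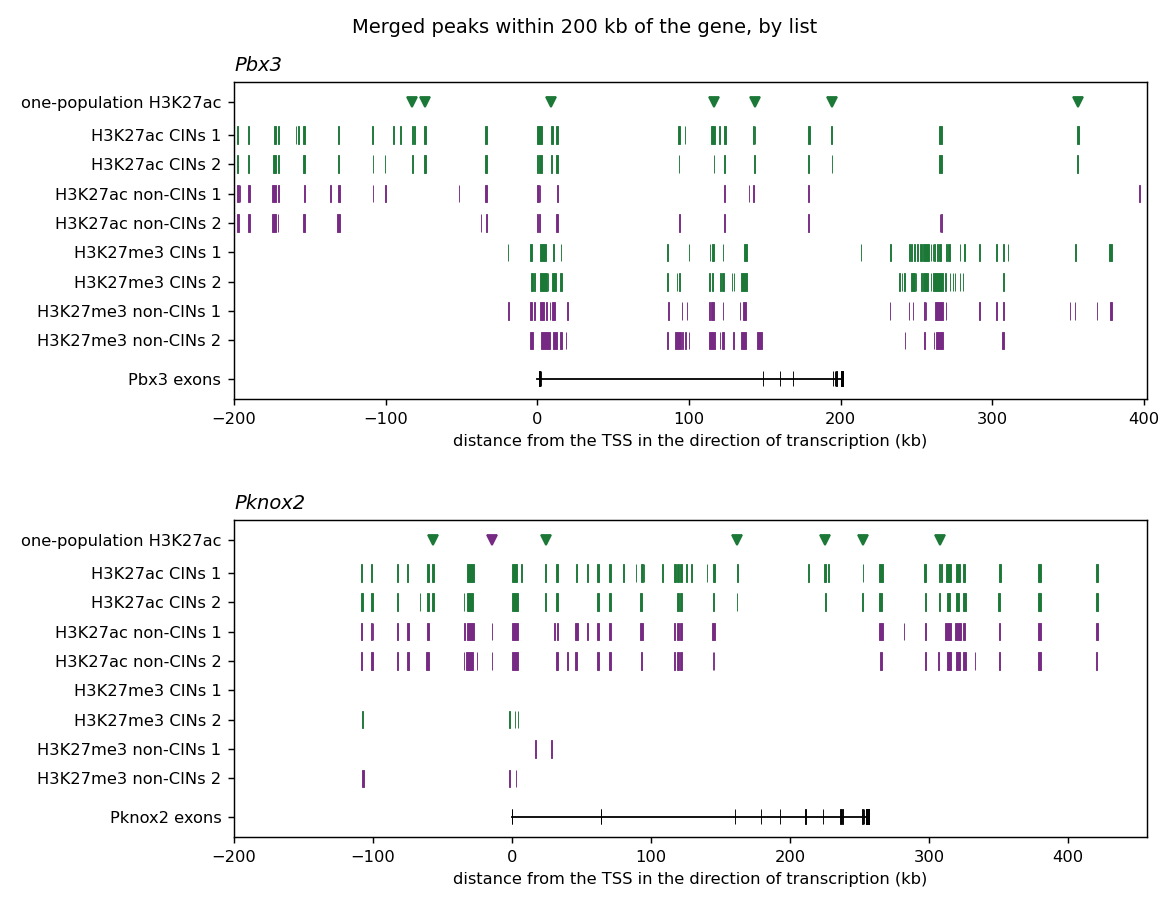
Merged peaks of the 8 lists from 200 kb before *Pbx3* (top) and *Pknox2* (bottom) to 200 kb past their ends, by distance from the TSS in kb; bars are peaks, triangles are H3K27ac regions of one population, green for CINs and purple for non-CINs, and exons are black. Each gene has more green triangles (7 and 6) than purple (0 and 1).

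*Meis1*, on the minus strand (chr11:18879817-19018985), had 17813 and 12926 bp of H3K27ac in the CIN lists, compared with 12703 and 12758 bp in the non-CIN lists. CINs replicate 1 stood well above the other 3 lists, and the lower CIN list exceeded the higher non-CIN list by only 168 bp. The means were 15369.5 ± 3456 and 12730.5 ± 38.9 bp (SD, n = 2; exact permutation p = 0.333), and the separation was lost when peaks up to 1000 bp apart were merged or when the window began 10 kb upstream. The strongest peak was at percentiles 87.9 and 90.5 in CINs against 87.4 and 92.2 in non-CINs, which overlapped.

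In every list the longest *Meis1* H3K27ac peak spanned the TSS, from about 2 kb upstream to beyond 5 kb downstream, and was 7434, 7589, 7500 and 7814 bp long in CINs replicates 1 and 2 and non-CINs replicates 1 and 2. This placed it at length percentiles 99.6 to 99.7 of its list. The RefSeq promoter of *Meis1* (GRCm38.p6, minus strand, 250 bases before to 50 after the RefSeq start) was fully under H3K27ac in all 4 lists and is shown because the merged peak over it held the strongest *Meis1* call of every list.
*Meis1* promoter, chr11:19018920-19019219: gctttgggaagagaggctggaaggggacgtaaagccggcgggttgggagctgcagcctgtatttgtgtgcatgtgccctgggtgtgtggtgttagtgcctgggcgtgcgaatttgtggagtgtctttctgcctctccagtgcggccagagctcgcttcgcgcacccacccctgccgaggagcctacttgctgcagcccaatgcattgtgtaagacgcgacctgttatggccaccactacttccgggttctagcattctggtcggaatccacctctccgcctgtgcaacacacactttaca
It had a GC content of 58.3%, against a median of 52.7% over 32851 RefSeq promoters of the same length, and held none of the 3 cores.

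The 4 CIN-only H3K27ac regions of *Meis1* were at percentile 97.7 among all genes, with no non-CIN-only region and 9 common ones within 200 kb. As the map of the *Meis1* locus shows, 2 lay in introns, at 87.9 and 102 kb from the TSS, and 2 close together in the intergenic stretch past the gene, at 268 and 270 kb. *Meis1* had the nearest TSS of all 4, and no other protein-coding gene lay within 200 kb of it. The intronic region at 102 kb was the strongest, at percentiles 76.6 and 49.1 of the replicates, and it is the region with the DLX core above. The intergenic pair overlapped H3K27me3 of CINs replicate 2, and the one at 268 kb also of non-CINs replicate 2.

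H3K27me3 covered 5518 and 7164 bp of the *Meis1* window in the CIN lists, compared with 6445 and 6504 bp in the non-CIN lists, so the non-CIN lists lay between the CIN lists. Its longest peak began within 2 kb downstream of the TSS in each list and overlapped the H3K27ac peak there. The strongest call was at percentiles 75.2 and 83.7 in CINs against 85.3 and 80.4 in non-CINs, which also overlapped. Bases under both marks came to 3498 and 3952 bp in the CIN lists, compared with 3524 and 3113 bp in the non-CIN lists. The longest H3K27me3 stretch near *Meis1* lay outside the window, just past the end of the gene (chr11:18866675-18877429). There 10755 bp were covered in all 4 lists, within peaks of 10906 and 11990 bp in the CIN lists, compared with 12013 and 11354 bp in the non-CIN lists, and 0 to 618 bp of it lay under H3K27ac.

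*Meis2*, on the minus strand of chromosome 2 (chr2:115863064-116065839), had the most H3K27ac bp of the 9 genes in every list. H3K27ac covered 68602 and 62414 bp in the CIN lists, compared with 71843 and 93367 bp in the non-CIN lists. Non-CINs replicate 2 was far above the others, and the lower non-CIN list exceeded the higher CIN list by 3241 bp, with means of 82605 ± 15219.8 and 65508 ± 4376 bp (SD, n = 2; exact permutation p = 0.333). The separation was lost when covered bp were divided by the total of the list, and also with only the strongest 30000 peaks kept. The strongest peak was among the top of every list, at percentiles 97.8 and 99.4 in CINs against 98.5 and 99.9 in non-CINs.

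A single H3K27ac domain lay over the *Meis2* TSS in all 4 lists, 34705 and 34957 bp long in the CIN lists, compared with 36444 and 37473 bp in the non-CIN lists. It reached from 10.7 to 11.3 kb upstream to 24.0 to 26.6 kb downstream and was at length percentile 99.99 of each list. The non-CIN domains were the longer, and the 4 lengths differed by less than 3 kb. The RefSeq promoter is shown because this shared domain covers it.
*Meis2* promoter, minus strand, chr2:116064570-116064869: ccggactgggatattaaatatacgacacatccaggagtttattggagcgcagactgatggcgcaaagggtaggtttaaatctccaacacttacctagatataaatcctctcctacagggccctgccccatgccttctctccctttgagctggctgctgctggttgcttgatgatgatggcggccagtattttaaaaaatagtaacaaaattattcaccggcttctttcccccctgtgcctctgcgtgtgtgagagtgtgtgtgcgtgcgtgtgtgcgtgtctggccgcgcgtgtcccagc
It was fully covered by H3K27ac in the 4 lists, had a GC content of 51.0% and held none of the 3 cores.

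H3K27me3 was also called at *Meis2*, over 4364 and 6353 bp in the CIN lists, compared with 4455 and 4270 bp in the non-CIN lists. CINs replicate 2 was the highest and the other 3 lists lay within 200 bp of each other. Both CIN lists lay above both non-CIN lists only when peaks up to 1000 bp apart were merged, or after division by the list total. In peak strength CINs replicate 1 was the highest, at percentiles 93.6 and 69.6 in CINs against 70.5 and 59.2 in non-CINs. In each of the 4 pairs of lists every one of these bases was also under H3K27ac, the largest overlap of both marks among the members in CINs and in non-CINs alike.

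*Meis2* was the member with most non-CIN-only regions: 5, at percentile 99.5 among all genes, beside 2 CIN-only and 27 common regions within 200 kb. Of the 5, 4 lay in *Meis2* introns, at 49.99, 116, 177 and 193 kb from the TSS, and the strongest lay past the gene end, at 218 kb. They were 180 to 508 bp long, with lower percentiles between 1.80 and 37.9 of all peaks of a list. Ranked by that lower percentile among all non-CIN-only regions, the strongest stood at percentile 88.7 and the others between 6.41 and 52.0. The CIN-only regions lay outside the gene, at −116 kb and, in an intron of the neighbouring *BC052040*, at 378 kb from the *Meis2* TSS. Their lower percentiles were 41.5 and 41.1, which ranked at 66.9 and 66.4 among all CIN-only regions. None of the 7 overlapped H3K27me3 in any list. Past the end of *Meis2* both populations shared a further H3K27ac stretch of 9852 bp (chr2:115852537-115862388), within peaks of 9852 and 11055 bp in the CIN lists, compared with 10742 and 11365 bp in the non-CIN lists.

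**Figure D3:**
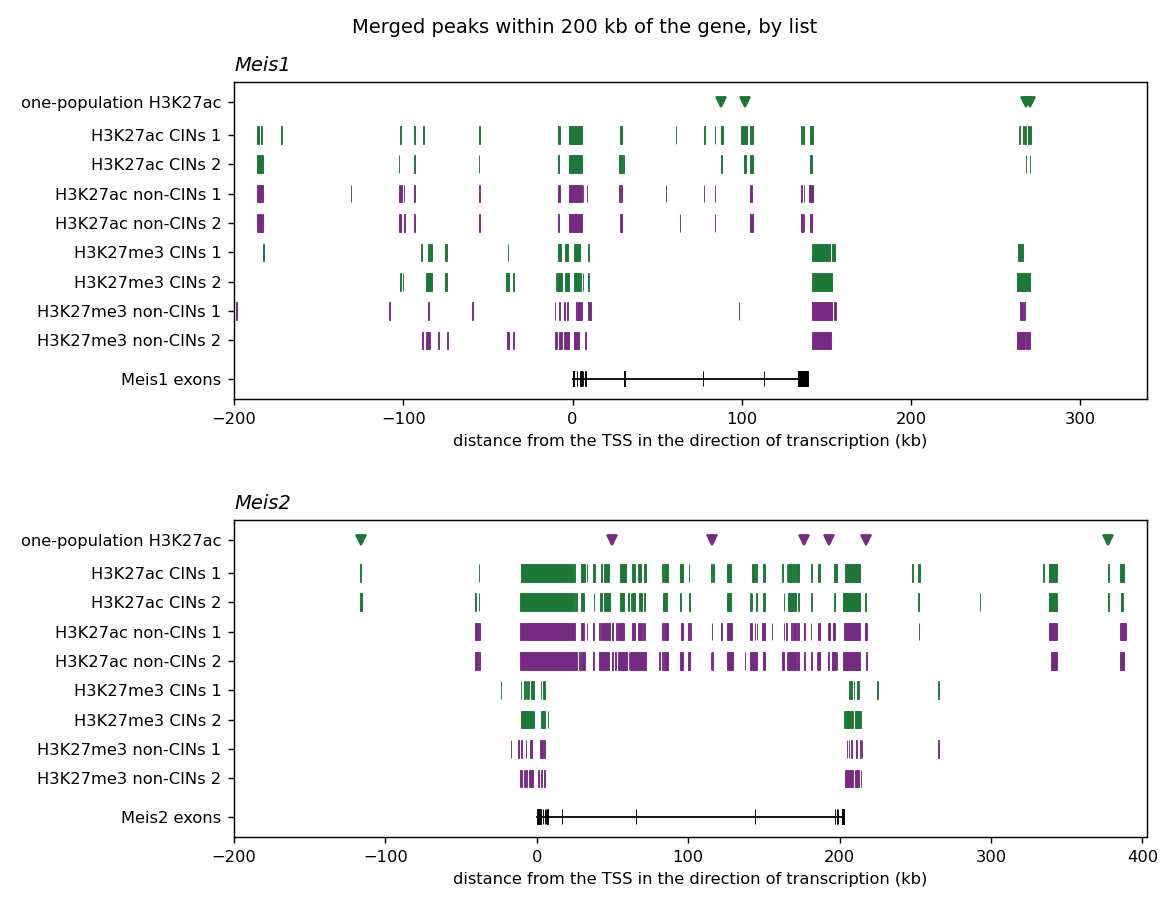
Merged peaks of the 8 lists from 200 kb before *Meis1* (top) and *Meis2* (bottom) to 200 kb past their ends, by distance from the TSS in kb; bars are peaks, triangles are H3K27ac regions of one population, green for CINs and purple for non-CINs, and exons are black. *Meis1* has 4 CIN-only regions downstream of its TSS, and *Meis2* has a block of H3K27ac over its TSS in all 4 lists and 5 non-CIN-only regions.

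By the share of the window covered in the 8 lists, the genes most like *Meis1* were *Zscan12*, *Hook2* and *Prkd3*, at Euclidean distances of 3.53, 3.60 and 3.78 percentage points. Those most like *Meis2* were *Gapdh*, *Metrn* and *Trim59*, at 7.45, 8.09 and 8.78 percentage points. *Gapdh* and *Metrn* had no H3K27me3 and *Trim59* had it only in non-CINs replicate 2, over 1.38% of the window, where *Meis2* had 2.06% (2.06% to 3.06% over the 4 lists).

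*Meis3*, a short MEIS gene (chr7:16175090-16186504, plus strand), had 1 H3K27ac peak in each list, at its TSS. It covered 1467 and 1111 bp in the CIN lists, compared with 1049 and 671 bp in the non-CIN lists, a gap of 62 bp between the populations and a ratio of 1.499 (means 1289 ± 252 and 860 ± 267 bp, SD, n = 2; exact permutation p = 0.333). The order held for peak strength too, at percentiles 88.7 and 65.5 in CINs against 58.4 and 29.2 in non-CINs. Besides *Meis3*, only *Pbx2* had its strongest H3K27ac peak ranked higher in both CIN lists than in both non-CIN lists, and that peak lay upstream of the gene and not at its TSS. H3K27me3 appeared only as a peak of 274 bp in CINs replicate 1 and 287 bp in non-CINs replicate 2, about 4 kb upstream.

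The *Meis3* promoter is printed because the peak over it was the one that differed.
*Meis3* promoter, plus strand, chr7:16175145-16175444: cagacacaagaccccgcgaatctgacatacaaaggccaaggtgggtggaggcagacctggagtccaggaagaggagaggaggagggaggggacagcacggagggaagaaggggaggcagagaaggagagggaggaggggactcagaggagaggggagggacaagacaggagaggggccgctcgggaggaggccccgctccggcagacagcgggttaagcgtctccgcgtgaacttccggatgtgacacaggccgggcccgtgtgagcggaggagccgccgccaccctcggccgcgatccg
All 300 bases lay under H3K27ac in the 4 lists, with a GC content of 66.7% and none of the 3 cores. No H3K27ac region of one population lay within 200 kb of *Meis3*, while 18 common ones did, in a stretch with 12 other protein-coding genes.

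*Pbx2* (chr17:34591266-34597400, plus strand) encodes a widely expressed PBX protein. Under H3K27ac lay 4577 and 3302 bp in the CIN lists, compared with 4666 and 2951 bp in the non-CIN lists, with replicate 1 higher than replicate 2 in each population. Its strongest peak, at percentiles 96.6 to 99.3, was centred at −4.42 to −4.64 kb from the TSS. The window also overlaps *Notch4*, whose TSS lies outside it. It holds the TSS of *Gpsm3*, at −1.46 kb, which lay under an H3K27ac peak in none of the 4 lists. With the window begun 2 kb upstream the covered bp were 2556 and 1394 in CINs against 2524 and 958 in non-CINs, and the strongest peak fell to percentiles 77.4 and 71.5 in CINs against 72.3 and 65.3 in non-CINs. No H3K27me3 was called in the *Pbx2* window, and no H3K27ac region of one population lay within 200 kb. In the flanks within 200 kb, 4 stretches of H3K27me3 were shared by all 4 lists, the longest of them 4562 bp long and 80.9 kb from the TSS.

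*Pbx4* (chr8:69832491-69872292, plus strand) had a single H3K27ac peak over its TSS in each list. The peak covered 1354 and 1471 bp in the CIN lists, compared with 1638 and 1056 bp in the non-CIN lists, and its strength was at percentiles 78.6 and 56.8 in CINs against 70.5 and 64.4 in non-CINs. The CIN values lay between the non-CIN values in covered bp, and the reverse held for strength. A CIN-only region in *Yjefn3* and a non-CIN-only region in *Gatad2a* lay within 200 kb, both nearer to the TSS of the gene that holds them.

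Of the PREP genes, *Pknox1* (chr17:31564734-31607693, plus strand) had a promoter peak near the top of every list, at percentiles 99.71 and 99.71 in CINs against 99.73 and 99.47 in non-CINs. The covered bp were uneven between replicates, at 8487 and 2963 in CINs against 4621 and 2682 in non-CINs. Each CIN list was above the non-CIN list of the same number, but the populations overlapped. No H3K27me3 was called in its window, and the 2 CIN-only and 2 non-CIN-only regions within 200 kb all had the TSS of another gene, *Pde9a* or *Cryaa*, as their nearest.

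*Pknox2* (chr9:36890982-37147407, minus strand) had 26041 and 14450 bp of H3K27ac in the CIN lists, compared with 18069 and 14495 bp in the non-CIN lists. CINs replicate 1 was the highest and the other CIN list the lowest, so the populations overlapped. The difference of means, 3964 bp more in CINs, became −1844 bp at −log10 *q* of at least 4 and −2116 bp with the strongest 30000 peaks. It kept its sign with the settings on merging, window and list total. Merged peaks numbered 25 and 12 in CINs against 12 and 12 in non-CINs, and the strongest was at percentiles 97.5 and 87.5 in CINs against 94.0 and 91.0 in non-CINs. Its longest peak, of 3558 to 4173 bp, began 0.072 to 0.119 kb downstream of the outermost TSS.

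There were 6 CIN-only regions within 200 kb of *Pknox2*, at percentile 99.5 among all genes, 1 non-CIN-only region and 22 common ones. Introns of *Pknox2* held 4 of the 6, at 24.2, 162, 225 and 252 kb from the TSS, where the last was a shared stretch of 17 bp only. The strongest, with the 2 MEIS cores, lay 56.7 kb upstream of *Pknox2* and 4.14 kb from the TSS of *Tmem218*. H3K27me3 covered 0 and 1189 bp in the CIN lists, compared with 748 and 1307 bp in the non-CIN lists. Within each replicate number the non-CIN list was the higher, so *Pknox2* too had more H3K27me3 in non-CINs with the replicate block. In each replicate number the non-CIN H3K27me3 list also covered more of the whole genome, and the block call was not scaled for this.

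*Tgif1* (chr17:70844205-70853546, minus strand) had a single merged H3K27ac domain in each list, of 5483 and 5614 bp in the CIN lists, compared with 5891 and 5848 bp in the non-CIN lists. These lengths were at percentiles 99.1 to 99.4 of their lists, while the strongest peak within them was at 64.6 and 64.2 in CINs against 65.0 and 61.1 in non-CINs, so the domain was long but of moderate strength. The non-CIN lists were higher by at least 234 bp, with means of 5870 ± 30.4 and 5548 ± 92.6 bp (SD, n = 2; exact permutation p = 0.333). When peaks were not merged the call itself reversed, with both CIN lists above both non-CIN lists and means 472 bp higher in CINs. The means also turned to more in CINs, without separation of the lists, by 972.5 bp at −log10 *q* of at least 4 and by 242 bp with the strongest 30000 peaks, and the separation was lost after division by the list total.

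H3K27me3 at *Tgif1* was called in replicate 2 of both populations, over 4433 bp in CINs but 2862 bp in non-CINs, and in replicate 1 of neither. It therefore separated the replicates and not the populations. Of the replicate 2 bases, 3450 bp in CINs but 1396 bp in non-CINs lay under H3K27ac as well. The 1 region of one population within 200 kb, non-CIN-only, lay in an intron of *Dlgap1*.

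**Figure D4:**
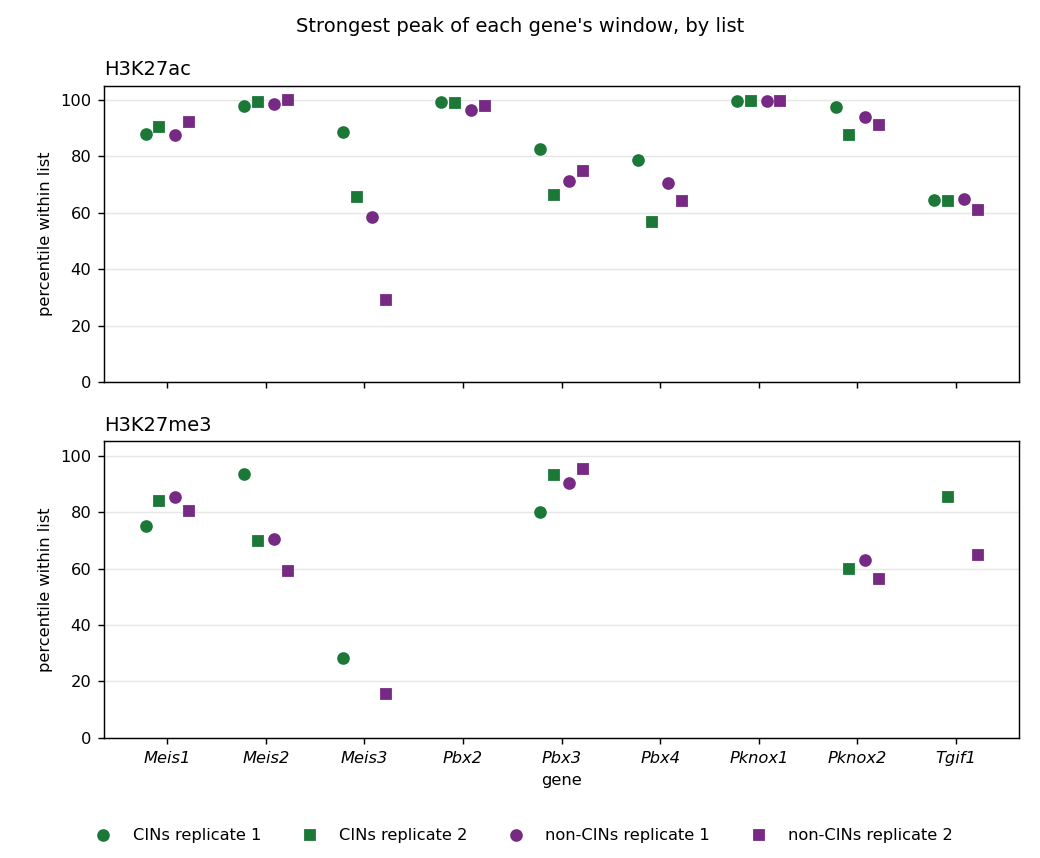
Percentile, within its own list, of the fold enrichment of the strongest peak in each gene's window for H3K27ac (top) and H3K27me3 (bottom), with 1 point for each list, coloured and shaped as in the plot of covered share; genes without a peak have no point. *Pknox1*, *Pbx2* and *Meis2* are above percentile 96 for H3K27ac in all 4 lists, *Pbx2* through a peak more than 4 kb upstream of its TSS. *Meis3* runs from 29.2 to 88.7.

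Summed over the 9 genes, there were 22 CIN-only, 10 non-CIN-only and 140 common H3K27ac regions within 200 kb. Of these 172 regions 12.8% were CIN-only and 5.81% non-CIN-only, against 12.1% and 7.996% of all such regions of the genome, so CIN-only regions outnumbered non-CIN-only ones in the lists as a whole too. The counts depended on the settings: they were 12 CIN-only and 5 non-CIN-only both at −log10 *q* of at least 4 and with the strongest 30000 peaks, and 8 and 6 when replicates had to overlap reciprocally by 50%. With replicate 2 alone the order turned, at 42 CIN-only and 46 non-CIN-only regions, whereas replicate 1 alone gave 66 and 53. A CIN-only region was present near 6 of the 9 members, against 39.7% of all protein-coding genes, and a non-CIN-only region near 5, against 37.5%. These counts were not scaled by length, and *Meis2*, *Pbx3* and *Pknox2* are the longest of the 9 genes. Of the CIN-only regions 16 lay in introns and 6 between genes, and of the non-CIN-only ones 8 in introns and 2 between genes. None lay in a promoter or an exon. The median length was 415 bp for CIN-only and 233 bp for non-CIN-only regions. By the definition used, none of the 22 could meet a peak in either non-CIN list, and none of the 10 a peak in either CIN list. H3K27me3 of some list overlapped 3 of the 32, at *Meis1* and *Pbx3*.

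**Figure D5:**
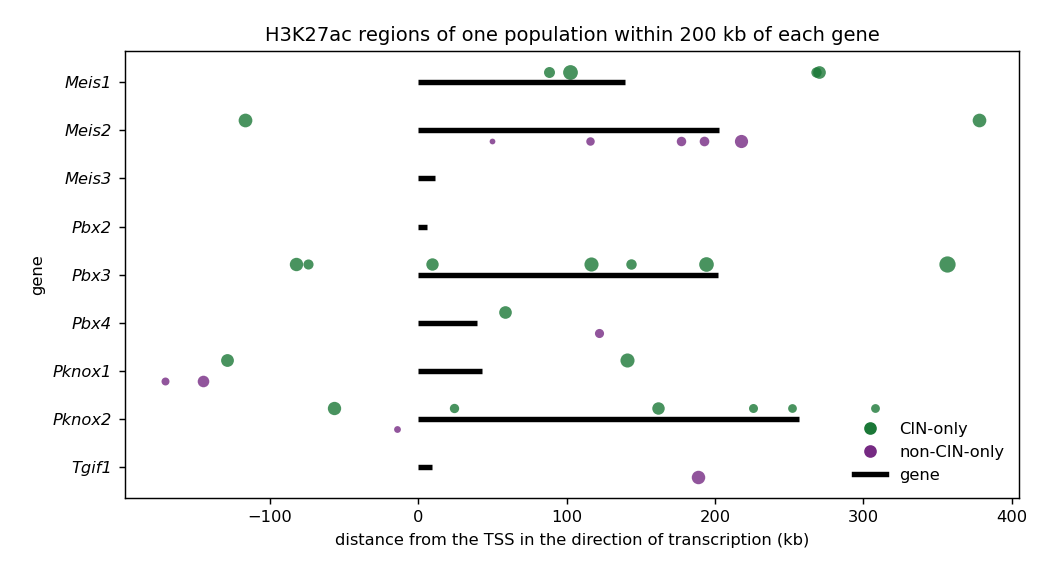
H3K27ac regions of one population within 200 kb of each gene, by distance from the TSS in kb in the direction of transcription; green points above the gene line are CIN-only, purple points below it non-CIN-only, larger points have a higher fold percentile in the weaker of their 2 lists, and black lines are the genes. *Pbx3* and *Meis1* have green points only (7 and 4), and *Meis2* has 5 purple and 2 green.

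The other TALE genes of the annotation that were listed, *Irx1* to *Irx6* and *Mkx*, which are known for roles in heart, limb and tendon development, all had H3K27me3 in every list and an HC H3K27me3 peak at the TSS in both populations. The windows of the 6 *Irx* genes were covered over 86.5% to 100% in each list, but that of *Mkx* over only 9.24% to 10.65%. H3K27ac was called only at *Irx5* and *Mkx*. Of the 9 genes, 0 had such an HC H3K27me3 peak, and their highest H3K27me3 share in any list was 30.9%, at *Tgif1*, below every *Irx* gene but above *Mkx*.

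Partners and regulators of MEIS and PBX proteins in the forebrain formed a further list of 10, all with an H3K27ac peak. There 6 had more H3K27ac in CINs (*Dlx1*, *Dlx2*, *Dlx5* and *Dlx6*, which drive interneuron development, and *Sp8* and *Sp9*; the 4 *Dlx* genes are also among the GABAergic markers), and none of these 6 had an H3K27ac peak in a non-CIN list. *Pbxip1*, which encodes a protein that binds PBX, and *Zfp503* had more in non-CINs, with 11.7% and 11.4% of the *Pbxip1* window covered in CINs against 17.2% and 17.4% in non-CINs. *Pax6*, a known partner of MEIS2, was covered over 69.6% and 62.9% in CINs against 66.7% and 65.6% in non-CINs and overlapped. In contrast to the *Dlx* and *Sp* genes, each of the 9 TALE genes had H3K27ac in all 4 lists.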

How the data were processed

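Native ChIP-seq of H3K27ac and H3K27me3 was analysed from 8 broad peak lists (2 marks, 2 populations, 2 replicates). Reads had been mapped to mm10 by the authors (BWA 0.7.15 per the labels) and filtered on mapping quality. The authors then ran MACS2 in broad mode on every replicate, with its own input as control and no local background. The deposited score of a peak is the caller's scaled −log10 *q*, the deposited fold is a ratio of ChIP over input, and −log10 *p* and −log10 *q* were deposited as the caller gave them. Read depth was not used, so its precision cannot be stated.

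Within each list, peaks separated by at most 500 bp were joined, as in the study. Fold was used as a percentile within its list. Overlap needed 1 bp. Regions of one population were found by presence or absence of overlap between called lists of the same replicate number. The study also compared populations within each replicate, but from the signal, with MACS2 bdgdiff, so its regions are a different set. Gene values were compared without pairing. Genes came from GENCODE M21 (basic), sequences from GRCm38 (mm10) and RefSeq promoters from GRCm38.p6, which matched 6 of the 9 genes (not *Pbx3*, *Pknox1* and *Pknox2*). The genes named are all members, the fixed lists of other TALE genes, partners and markers, host or nearest genes of regions, and the 3 likest genes of *Meis1* and *Meis2*. Also named are *Gpsm3* and *Notch4*, which overlap the *Pbx2* window. Up to 5 regions for each member and direction were to be given in full, with positions for the rest, and sequences were taken from the strongest. Members and lists were chosen with earlier results of these data known. The shared stretches past the ends of *Meis1* and *Meis2* were added after their values were seen. Python 3.11.15, NumPy 2.4.6, SciPy 1.17.1 and pysam 0.24.0 were used, and the interval operations were tested on simulated data against bedtools 2.31.1.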

Additional observations from a re-analysis of the deposited data

How the results depend on the processing

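Of the 10 alternatives for covered bp, 3 (the replicate block and leaving out either replicate) cannot change a call already made. Under the other 7, *Meis3* and *Pbx3* kept more H3K27ac in CINs in all, *Meis1* in 5 and *Meis2* (more in non-CINs) in 5. *Tgif1* kept its call in 3, lost it in 3 and was called higher in CINs in 1, without merging. The *Pbx3* difference of means, 7154 bp, fell to 4576 bp at −log10 *q* of at least 4 and to 3748 bp with the strongest 30000 peaks. The settings on merging, window and −log10 *q* left the single *Meis3* peak of each list, and its difference of 429 bp, as they were. With the strongest 30000 peaks the *Meis3* difference moved to 764.5 bp. The *Tgif1* difference between CINs and non-CINs, −321 bp, became 472 bp without merging, 972.5 bp at −log10 *q* of at least 4 and 242 bp with the strongest 30000 peaks. Members with more H3K27ac in non-CINs, 2 at first, were 1 without merging, 1 at −log10 *q* of at least 4, 0 with the strongest 30000 peaks and 0 after division by the list total. For H3K27me3, members with more in CINs, 0 at first, were 1 with merging up to 1000 bp and 1 after division by the list total (*Meis2* in both). Members with more in non-CINs, 0 at first, were 1 (*Pknox2*) at −log10 *q* of at least 4 and 2 (*Pbx3* and *Pknox2*) with the replicate block. For neither mark was the share of all genes called under these settings computed, so the counts of members have no background. CIN-only regions, 22 at first, were 12 at −log10 *q* of at least 4, 12 with the strongest 30000 peaks, 8 when replicates had to overlap reciprocally by 50% and 37 within 500 kb, and non-CIN-only regions, 10 at first, were 5, 5, 6 and 16. The cause was not tested beyond what each setting changes.

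Leaving out a replicate gave 5 to 6 members with more H3K27ac in CINs and 3 to 4 with more in non-CINs, 1 to 3 and 3 to 4 for H3K27me3, 42 to 66 CIN-only and 46 to 53 non-CIN-only regions (42 against 46 without replicate 1, which turns their order, and 66 against 53 without replicate 2), and 0 to 1 members with a HC H3K27me3 peak at the TSS in non-CINs. Each of these rests on 1 list a population, with no recurrence, so for covered bp any difference makes a call. The matching shares over all genes were not computed. Of the counts, 64 values kept within 1.5 times of the first value and 28 did not. Same-numbered lists deviated together (correlation of deviations 0.314 over 14672 genes for H3K27ac and 0.722 over 8941 for H3K27me3). The labels give the numbers no shared source, there were only 2 pairs, and the total bp of a list differed by replicate number for both marks. With the replicate block *Pknox1* joined the genes with more H3K27ac in CINs (4 in all); the block can only add calls. For the regions, which use the block, leaving it off gave 24 in CINs and 13 in non-CINs.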
